A study of Mus musculus with 4 samples.

Results

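The protocadherins were followed as a gene family in RNA of mouse middle ears. Members were all probes, other than control spots, whose target accession belongs to a mouse gene with a symbol that begins with Pcdh, apart from a gene not reported here. There were 55 such probes for 46 genes, of 39429 probes on the array, which name 20971 genes. The clustered genes took 38 probes for 35 genes, namely 9 probes of Pcdha genes, 22 of Pcdhb genes and 7 of Pcdhg genes. The single-locus genes took 17 probes for 11 genes. RefSeq lists 14 Pcdha, 22 Pcdhb and 22 Pcdhg genes, so all 22 Pcdhb genes were covered, while 7 Pcdha and 6 Pcdhg genes were. All clustered genes lie on chromosome 18, as do the single-locus genes Pcdh1 and Pcdh12.

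Protocadherins are cadherin repeat proteins of the cell surface, best known from neurons. In the clusters, each neuron uses a few of many alternative promoters. A chosen Pcdha or Pcdhg variable exon is spliced to constant exons shared across its cluster, while a Pcdhb gene has a single coding exon, and the resulting proteins bind their own kind on neighbouring membranes and let a neuron tell its own branches from those of others. The single-locus genes include the delta protocadherins, which act in axon growth, cell sorting and the actin cytoskeleton, and a few members used in epithelium and blood vessels.

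On each of 4 2-colour arrays, an extract of DEP ear in the red dye Cy5 was set against an extract of control ear in the green dye Cy3. DEP stands for diesel exhaust particles. Per the study's methods 9 male BALB/c mice aged 6 to 10 weeks were used. Mice inhaled DEPs for 1 h a day on days 1 to 5 and were killed on day 14, and temporal bone with the middle ear was taken. The labels give the control ears no treatment, and no genotype is given for either group. The labels call the arrays biological replicates, but how many mice went into each extract is not given in the sources used here, so the spread between arrays may be partly technical. Dyes were not swapped, so a dye preference of a transcript and an effect of exposure cannot be told apart. The channels were assigned by the source names; elsewhere the labels list both treatments under Cy5. All ratios are log2 values of Cy5 over Cy3, DEP over control, and with the channels the other way every sign, and every count given as higher or lower, would turn. Read this way they run opposite to the study's own direction: Chrm1, which the study lists as increased, had a ratio below 0 here, and Esr1, which it lists as decreased, a ratio above 0. The study reports its direction for both genes from qRT-PCR too. Slc1a2, also among its upregulated genes, had a mean of -1.61 here. All 10 markers of middle ear and airway epithelium stood well above background on every array in Cy5 and Cy3, and so did 11 of 12 neuron markers and 9 of 9 astrocyte markers, so that the extracts also carried RNA typical of nervous tissue. Because whole extracts were measured, fewer cells of a type and less RNA per cell cannot be told apart.

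Protocadherin signal was measurable in both channels on all 4 arrays for 26 probes of 24 genes, 47.3% of the family's probes. Over the whole array the same share was 56.8%. Of the single-locus probes 10 of 17 reached this level, against 16 of 38 clustered probes. Within the clusters it was reached by 12 of 22 Pcdhb, 2 of 9 Pcdha and 2 of 7 Pcdhg probes. A further 13 members, 6 of them Pcdhb probes, did not reach it on any array in either dye. The number of clustered probes above background in the control channel was 24, 23, 18 and 17 of 38 on arrays 1 to 4, and in the DEP channel 19, 23, 24 and 21. Single-locus probes numbered 15, 15, 12 and 10 of 17 in the control channel and 11, 12, 13 and 12 in the DEP channel. On array 1 more protocadherin probes were thus detected in the control ear than in the DEP ear, and on array 4 the reverse held. The whole array moved the same way, with 65.4% of all probes above background in DEP and 68.0% in control on array 1, 68.9% and 59.2% on array 3, and 66.5% and 60.3% on array 4.

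**Figure D1:**
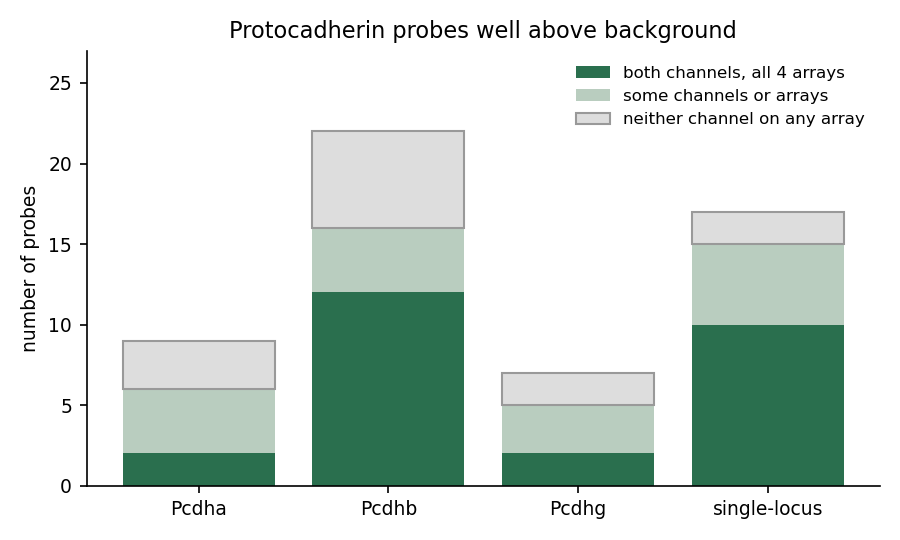
Number of protocadherin probes (vertical axis) by subfamily (horizontal axis), divided by whether the signal was well above background. Pcdhb and single-locus genes hold 22 of the 26 probes measured in both channels on all 4 arrays, and 13 probes were never above background.

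A ratio on at least 3 arrays was needed for a test, and 48 of 55 members had one. None of them passed limma's moderated test at an adjusted p under 0.05, nor did any of the 31577 probes tested on the arrays, which is 0% of the background; the smallest adjusted p was 0.206 among the members and 0.0922 over all probes. At an unadjusted p under 0.05, 8 members were lower in the DEP channel, 16.7% of the 48, where 8.96% of all probes were. Another 4 were higher, 8.33%, where 9.6% of all probes were. A mean ratio past 2-fold lower was seen for 7 members, 14.6%, against 4.47% of all probes, and past 2-fold higher for 0 members, against 2.22%. Low signals made up part of these counts: the 7 included a second probe of Pcdhac2, a second probe of Pcdh9 that was above background on no DEP array and, never above background, Pcdh11x and Pcdhb8. With normexp background correction 1 member was past 2-fold lower after loess and 0 after median centring, and with normexp and median centring 4 members and 13.5% of all probes passed the adjusted threshold. Leaving out single arrays, with 2 ratios enough for a test, gave between 3 of 49 members, without array 2, and 20 of 49, all lower, without array 4, at an unadjusted p under 0.05, where 11.2% and 18.9% of all probes passed. Among the 26 probes measured in both channels on all arrays, 3 were past 2-fold lower, namely Pcdh10, Pcdh9 and Pcdhac2, which is 11.5% against 2.41% of all probes measured that well. Without array 1 none of these 3 was past 2-fold, with means of -0.88, -0.43 and -0.61. None of the 26 was past 2-fold higher (0.612% of the background), and 16 had a mean below 0, 61.5% against 46.8%. The unadjusted p counted 3 lower (Pcdh10, Pcdhb14 and Pcdhb15) and 3 higher (Pcdh7, Pcdh18 and Pcdh19) among the 26, each 11.5%, with backgrounds of 6.31% and 6.24%. The calls without adjustment therefore lay on both sides of 0.

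The single-locus genes are taken first, beginning with those of delta2 type, which share a cytoplasmic tail that binds the WAVE actin regulators. Pcdh10, which guides axon growth, had the lowest mean ratio among the 26 well-measured members. Its processed signal was 364, 201, 242 and 85.7 in the control channel of arrays 1 to 4 and 66.6, 92.6, 88.6 and 81.3 in the DEP channel. The DEP value lay below the control value on every array, and the channels nearly met on array 4. The log2 ratios were -2.45, -1.12, -1.45 and -0.08, with a mean of -1.27 ± 0.98 (SD, n = 4; SE 0.39), which is 2.42-fold lower (limma, unadjusted p = 0.0228, adjusted p = 0.212). With normexp the mean was -0.82 after loess and -0.87 after median centring, neither past 2-fold. A second Pcdh10 probe, for another transcript and above background on 3 arrays in each channel, gave -1.85, -0.49, -0.24 and 1.14. Both probes were lowest on array 1 and highest on array 4, but the second crossed 0. Its dimmest signals, 19.9 in DEP on array 1 and 17.8 in control on array 4, set these ends, which may not be exact.

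Pcdh17, a delta2 member at synapses and on growing axons, gave control signals of 702, 389, 650 and 173 and DEP signals of 163, 250, 292 and 274. The control ear was brighter on arrays 1 to 3 and the DEP ear on array 4. Its ratios of -2.11, -0.63, -1.16 and 0.67 averaged -0.81 ± 1.16 (SD, n = 4; limma, adjusted p = 0.392), and the mean was -0.37 without array 1 and -1.30 without array 4. Pcdh8, which regulates the turnover of N-cadherin at synapses, was above background only in the control channel, and there on arrays 1 and 2. Its control signal was 109, 38.9, 8.09 and 7.03 and its DEP signal between 4.81 and 7.73, so that no fold and no test was made. Pcdh8 was thus seen in the Cy3 channel alone.

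Pcdh18 and Pcdh19 are delta2 genes too, and their mean ratios were above 0. Pcdh19, the X-linked member whose loss in humans causes an epilepsy, had control signals of 439, 232, 291 and 201 and DEP signals of 548, 295, 320 and 262. Its ratios of 0.32, 0.35, 0.14 and 0.39 were above 0 on all arrays and varied the least of all single-locus probes. The mean of 0.30 ± 0.11 (SD, n = 4; SE 0.11) is 1.23-fold higher (limma, unadjusted p = 0.0379, adjusted p = 0.248). Pcdh18, which binds the adaptor protein Dab1, had control signals of 827, 521, 619 and 499 and DEP signals of 814, 784, 810 and 924. Its ratios were -0.02, 0.59, 0.39 and 0.89, with a mean of 0.46 ± 0.38 (SD, n = 4; SE 0.18; 1.38-fold; limma, unadjusted p = 0.0490, adjusted p = 0.267). The delta2 genes measured in both channels thus held 2 with means below 0 and 2 with means above 0.

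The promoters of these 4 genes are shown because the genes belong to 1 subclass and had mean ratios on opposite sides of 0. The 250 bases before the start of each gene, from RefSeq with assembly GRCm38.p6, are printed 5' to 3' in the direction of the gene, with the GC box in capitals (GGGCGG, or CCGCCC on the other strand). They are chr3:45378148-45378397 on the plus strand, chr14:84443313-84443562 on the plus strand, chr3:49757317-49757566 on the minus strand and chrX:133688994-133689243 on the minus strand.
Pcdh10: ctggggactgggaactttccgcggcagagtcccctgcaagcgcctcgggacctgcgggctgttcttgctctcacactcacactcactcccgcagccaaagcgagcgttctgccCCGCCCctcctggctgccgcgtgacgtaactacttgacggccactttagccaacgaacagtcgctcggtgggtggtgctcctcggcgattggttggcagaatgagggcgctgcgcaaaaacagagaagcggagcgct
Pcdh17: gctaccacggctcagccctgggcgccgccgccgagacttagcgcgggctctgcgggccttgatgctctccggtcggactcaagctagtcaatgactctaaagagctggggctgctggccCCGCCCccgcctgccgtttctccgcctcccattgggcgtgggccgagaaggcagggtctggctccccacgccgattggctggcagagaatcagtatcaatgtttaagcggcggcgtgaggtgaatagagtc
Pcdh18: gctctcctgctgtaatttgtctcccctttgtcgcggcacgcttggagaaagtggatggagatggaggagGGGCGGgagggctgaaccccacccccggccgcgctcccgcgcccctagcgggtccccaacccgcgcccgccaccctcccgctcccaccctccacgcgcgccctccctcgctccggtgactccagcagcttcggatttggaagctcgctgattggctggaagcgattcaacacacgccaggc
Pcdh19: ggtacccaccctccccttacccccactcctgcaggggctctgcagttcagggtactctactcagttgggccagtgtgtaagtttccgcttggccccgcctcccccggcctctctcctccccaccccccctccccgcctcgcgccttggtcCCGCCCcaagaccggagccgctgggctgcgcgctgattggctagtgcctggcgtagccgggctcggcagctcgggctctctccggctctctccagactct
Each of the 4 windows holds 1 GC box, which 32.7% of 32851 mouse promoter windows of this length hold, and none holds a TATA box (TATAAA, in 12.4%) or a full CRE (TGACGTCA, in 1.55%). Their GC content is 63.2% for Pcdh10, 64.8% for Pcdh17, 68.0% for Pcdh18 and 69.2% for Pcdh19, where the median of all windows is 52.4%. The GC box did not separate the 2 genes below 0 from the 2 above it, while the GC content was lower in the former 2; with 4 genes picked for these ratios this is a description. The window of Pcdh8, the other delta2 gene, holds no GC box and a TATA box and has a GC content of 51.2%, and those of Pcdh7, Pcdh9 and Pcdh20 hold no GC box. RefSeq windows of this set were at hand for 8 of the 46 genes, all of them single-locus.

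The delta1 genes, whose tail binds protein phosphatase 1, were Pcdh1, Pcdh7, Pcdh9 and Pcdh11x. Pcdh1 is the member known from airway epithelium, where it sits at cell contacts. Its control signal was 1203, 1216, 1133 and 1457 and its DEP signal 4789, 1634, 1335 and 833 on arrays 1 to 4. The ratios were 1.99, 0.43, 0.24 and -0.81, with a mean of 0.46 ± 1.16 (SD, n = 4; limma, adjusted p = 0.604). This order over the arrays, highest on array 1 and lowest on array 4, was the reverse of that of Pcdh10, Pcdh17 and Pcdh9. Without array 1 the mean of Pcdh1 was -0.05. Cdh1, the E-cadherin of epithelia, had the same order as Pcdh1, with 1.74, 0.27, -0.26 and -0.90. The epithelial marker list that holds Cdh1 did not, with medians of -0.15, 0.25, -0.31 and -0.54. Krt5 and Epcam shared the order, while Ltf was lowest on array 1 and Krt8 on array 3.

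Pcdh9, a neuronal delta1 gene, had 3 probes for 2 transcripts. The probe measured in both channels gave control signals of 594, 365, 158 and 109 and DEP signals of 76.8, 145, 131 and 135, with ratios of -2.95, -1.33, -0.27 and 0.30. Its mean was -1.06 ± 1.43 (SD, n = 4; limma, adjusted p = 0.365). Leaving out array 1 brought the mean to -0.43, and leaving out array 4 to -1.52. A second probe for the same transcript, above background in the control channel alone and there on 2 arrays, gave control signals of 41.5, 27.01, 9.85 and 7.78 and DEP signals of 4.95 to 9.24, which allow no exact ratio. The probe for the other transcript had ratios of 0.59, 0.11, -0.01 and -0.41 and a mean of 0.07 ± 0.41. That probe was thus highest on array 1 and lowest on array 4, the reverse of the one measured in both channels. It was above background on 2 control arrays alone, so its ratios and their order are not exact.

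Pcdh7, a delta1 gene made in brain and other tissues, also had probes of opposite sign. The probe of transcript NM_018764 gave 174, 178, 146 and 116 in the control channel and 384, 210, 179 and 210 in the DEP channel. All ratios were above 0, at 1.14, 0.23, 0.29 and 0.86, and the mean of 0.63 ± 0.44 (SD, n = 4; SE 0.20) is 1.55-fold higher (limma, unadjusted p = 0.0238, adjusted p = 0.215). After normexp this mean was 0.40 with loess and 0.42 with median centring. The probe of NM_001122758 gave -1.05, -0.70, -0.53 and 0.40, with a mean of -0.47 ± 0.62 (SD, n = 4; limma, adjusted p = 0.382). Another probe of NM_001122758, above background on 1 array in DEP and 3 in control, had a mean of -0.66 ± 0.68. Of the probes measured in both channels, that of NM_001122758 thus had a mean below 0 and that of NM_018764 a mean above it. The mean of the dimmer probe is not exact, and the difference between the transcripts was not tested. Pcdh11x, the X-linked delta1 gene, did not exceed background on any array with either probe.

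Pcdh12 is the vascular endothelial protocadherin. Its signals of 568, 297, 424 and 350 in control and 431, 427, 420 and 395 in DEP overlapped, and its ratios of -0.40, 0.52, -0.02 and 0.17 averaged 0.07 ± 0.38 (SD, n = 4; limma, adjusted p = 0.845). The other endothelial cadherin, Cdh5, was as near 0, at 0.01 ± 0.35. Of 10 endothelial markers 7 had a mean below 0, Cldn5 the lowest at -0.90 ± 0.12, and 3 above it, where 44.7% of named genes were below 0. Pcdh20 had ratios of -1.08, 0.01, 0.59 and 0.06 and a mean of -0.11 ± 0.70 (SD, n = 4; limma, adjusted p = 0.859). Without array 1 the mean of Pcdh20 was 0.22.

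**Figure D2:**
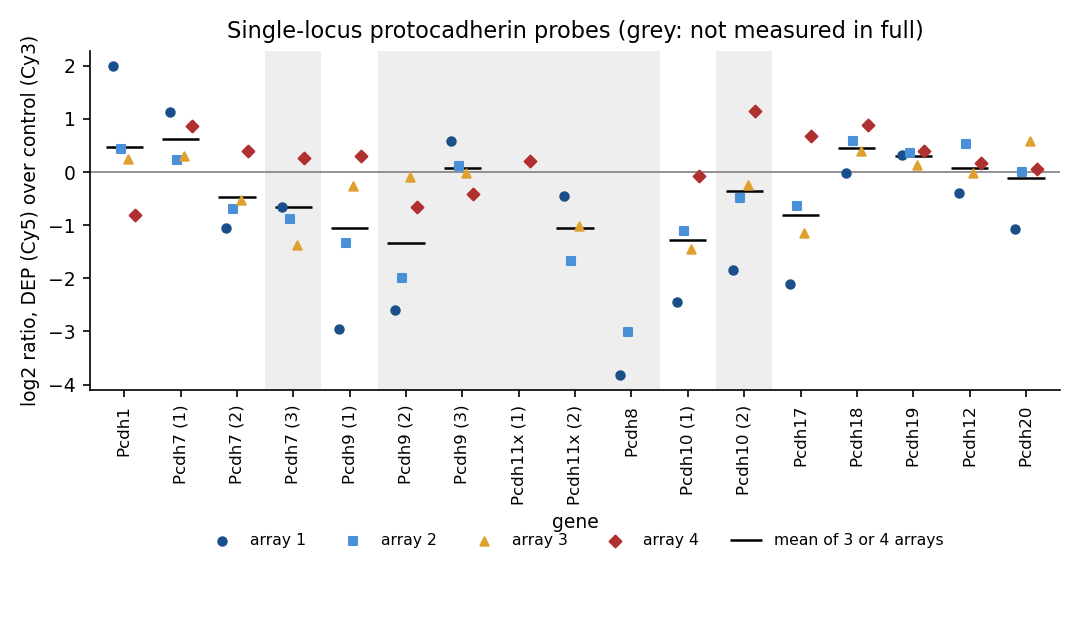
Log2 ratio of DEP over control (vertical axis) for each single-locus probe (horizontal axis), with a symbol per array and a bar at the mean of 3 or 4 arrays; probes of a gene are numbered, and grey bands mark probes that failed the background limit in a channel on at least 1 array. Pcdh10 (1), Pcdh9 (1) and Pcdh17 run from array 1 at the bottom, at -2.95 to -2.11, to array 4 at the top, Pcdh1 runs the other way, and the symbols of Pcdh19 lie between 0.14 and 0.39.

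Of the clustered genes, the Pcdha cluster had 2 probes measured throughout. Pcdhac2 is a C-type gene, which neurons express from both alleles rather than by random choice, and is the isoform of serotonergic neurons. Its control signals were 1584, 1268, 1291 and 523 and its DEP signals 270, 541, 623 and 717. Control exceeded DEP on arrays 1 to 3 and DEP exceeded control on array 4. The ratios of -2.55, -1.23, -1.05 and 0.46 averaged -1.09 ± 1.23 (SD, n = 4; SE 0.49), or 2.14-fold lower (limma, unadjusted p = 0.0750, adjusted p = 0.307). A second Pcdhac2 probe, above background on 1 array in DEP and 2 in control, gave control signals of 86.2, 62.3, 45.1 and 28.7 and DEP signals of 9.26, 10.7, 25.9 and 23.8, which allow no exact ratio on most arrays. The mean of the first probe was -0.61 without array 1 and -1.61 without array 4. Pcdha8, a variable isoform, had ratios of -0.77, -0.89, -0.43 and 0.24 and a mean of -0.46 ± 0.51 (SD, n = 4; limma, adjusted p = 0.329). The Pcdha8 mean was -0.69 without array 4, -0.32 without array 2 and -0.29 with normexp and loess. The C-type gene Pcdhac1 was above background on 1 array in the control channel and on none in DEP, and Pcdha4 and Pcdha11 on none. Pcdha9 was above background on 2 arrays in each channel, and Pcdha12 on 2 arrays in control and none in DEP. Over the 6 Pcdha probes tested the median ratio was -1.71, -1.23, -0.68 and 0.38 on arrays 1 to 4.

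The Pcdhb genes, whose proteins carry no shared constant domain, were the best measured cluster, and their ratios stayed small. The 12 probes measured throughout had means between -0.53 and 0.34 and a median of -0.08. Pcdhb14 had control signals of 295, 196, 156 and 133 and DEP signals of 166, 115, 115 and 129. Its ratios of -0.83, -0.77, -0.45 and -0.04 averaged -0.52 ± 0.36 (SD, n = 4; SE 0.17; 1.44-fold lower; limma, unadjusted p = 0.0287, adjusted p = 0.229). Pcdhb15 was below 0 on every array too, at -0.28, -1.0, -0.64 and -0.19, with a mean of -0.53 ± 0.37 (SD, n = 4; SE 0.17; limma, unadjusted p = 0.0293, adjusted p = 0.230). Its order over the arrays differed, with array 2 lowest, and with normexp and loess its mean was -0.26. Next from the low end was Pcdhb21, with -0.97, -0.50, -0.64 and 0.20 and a mean of -0.47 ± 0.49, which was -0.31 without array 1 and -0.70 without array 4. At the high end stood Pcdhb7, with ratios of -0.12, 0.02, 0.74 and 0.73 and a mean of 0.34 ± 0.46 (SD, n = 4; limma, adjusted p = 0.404). After normexp the Pcdhb7 mean was 0.21 with loess and 0.14 with median centring. Pcdhb12 followed with 0.27 ± 0.28, all arrays above 0, although normexp with median centring gave -0.0010, and Pcdhb17 with -0.17, 0.13, 0.42 and 0.58, a mean of 0.24 ± 0.33. Without array 4 the means of these 3 genes were 0.22, 0.15 and 0.13. Neighbours at both ends differed by less than the spread between arrays. No Pcdhb gene measured throughout was past 2-fold in either direction.

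In the Pcdhg cluster both probes measured throughout were assigned to Pcdhga9. They gave -0.42, -0.04, -1.81 and -0.66, with a mean of -0.73 ± 0.76 (SD, n = 4; limma, adjusted p = 0.296), and -0.31, -0.23, -0.35 and 0.09, with a mean of -0.20 ± 0.20 (SD, n = 4; limma, adjusted p = 0.427). For the first of them array 3 stood lowest and the mean without it was -0.37, and the mean of the second became 0.28 with normexp and median centring. Whether a probe lies in the variable exon or in the constant exons shared by the cluster is not given in the sources used here, so signal of a Pcdha or Pcdhg probe may come from more than the named gene. The C-type gene Pcdhgc5, which is made mainly in mature neurons, was above background on 1 array in each channel, so its mean of 0.09 ± 0.52 is not exact. Pcdhga1, past the unadjusted threshold on the higher side, was above background on 2 DEP arrays and no control array, with DEP signals of 30.8, 25.0, 21.4 and 15.5 and control signals of 28.2, 17.4, 8.68 and 10.8. Over the 6 Pcdhg probes tested the median ratio was -0.36, 0.24, -0.13 and 0.09 on arrays 1 to 4, above that of the Pcdha probes on arrays 1 to 3 and below it on array 4. Of the 6 probes in each of these medians 2 were measured throughout.

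**Figure D3:**
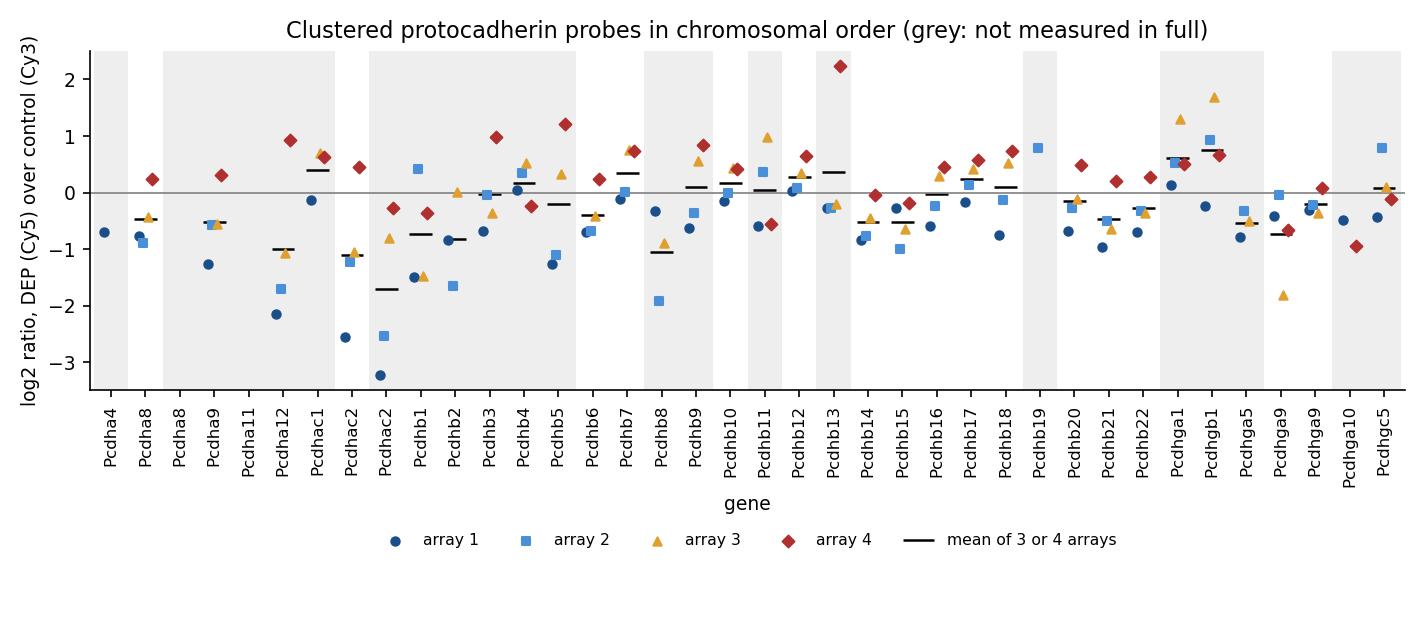
Log2 ratio of DEP over control (vertical axis) for each clustered probe in chromosomal order (horizontal axis), with a symbol per array and a bar at the mean of 3 or 4 arrays; grey bands mark probes that failed the background limit in a channel on at least 1 array. Of the probes outside the grey bands Pcdhac2 reaches the lowest value, -2.55 on array 1, while the means of Pcdhb probes there stay between -0.53 and 0.34.

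Clustered and single-locus genes were then compared as groups. The median ratio of the 33 clustered probes tested was -0.63, -0.27, -0.21 and 0.44 on arrays 1 to 4, and that of the 15 single-locus probes -0.65, -0.49, -0.09 and 0.28. The difference, clustered minus single-locus, was 0.02, 0.22, -0.11 and 0.16, with a mean of 0.07 ± 0.15 (SD, n = 4), so it was smaller than its spread. Among probes measured throughout the difference was 0.08, -0.38, -0.41 and -0.002, a mean of -0.18 ± 0.25, again below its spread. Single-locus means ran from -1.27 to 0.63 and clustered means from -1.09 to 0.34 among probes measured throughout, and from -1.33 to 0.63 and -1.71 to 0.76 among all tested, dim probes included. Below 0 lay 20 of 33 clustered and 9 of 15 single-locus means, where 46.9% of all probes did. Among probes measured throughout, 11 of 16 clustered means and 5 of 10 single-locus means lay below 0, where 46.8% did. With 1 probe per gene the single-locus median was 0.016.

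The family differed from array to array. Below 0 were 22, 17, 15 and 5 of the 26 members measured throughout on arrays 1 to 4, or 84.6%, 65.4%, 57.7% and 19.2%. Of all probes measured that well, 51%, 41.6%, 49.5% and 47.6% were. The median of the 26 was -0.64, -0.23, -0.19 and 0.35. Ratios of all probes were also widest on array 1, with an SD of 0.97, against 0.69, 0.66 and 0.63 on arrays 2 to 4. Array 1 was the lowest and array 4 the highest for 15 of the 26, 10 clustered and 5 single-locus, an order held by 20% of all probes; this count was chosen after the values were seen. After normexp background correction the order of the medians of the 26 was the same, -0.44, -0.24, -0.06 and 0.19 with loess and -0.42, -0.13, -0.06 and 0.14 with median centring. With the dimmer members included, 48 in all, normexp with median centring put array 3 lowest, at -0.36. The control channel varied more over the arrays than the DEP channel for 20 of the 26, after each channel was set relative to its array's median, a measure chosen after the values were seen, where 61.4% of all probes did so; for 6 of the 26, all clustered, it varied over 2 times as much, where 24.8% of all probes did.

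The list medians of nervous tissue markers were also highest on array 4 and, but for the cerebellum, lowest on array 1, although single markers differed, such as Sox9, with 1.25, 0.66, 0.45 and -0.36, and Gad1, Map2 and Slc17a7, which were lowest on array 2. Over all named genes 44.7% had a mean below 0 and 4.06% were past 2-fold lower. All 12 neuron markers had a mean below 0, 6 of them past 2-fold, and their median was -2.27, -1.58, -0.61 and 0.30 on arrays 1 to 4. All 11 cerebellum markers tested were below 0, with medians of -2.55, -3.19, -0.13 and 0.24, as were 7 of 9 astrocyte markers, with -2.36, -0.66, -0.05 and 0.12, and 8 of 10 oligodendrocyte markers, with -1.12, -0.33, -0.24 and 0.21. The summed signal of the neuron markers ranged from 21040 to 33392 in the DEP channel and from 25084 to 85258 in the control channel. For the astrocyte markers it ranged from 46262 to 55899 and from 39926 to 234048. Signals, here and for single genes, were not scaled between arrays. The median signal of all probes was 141.6 in DEP and 141.8 in control on array 1, and 94.2 and 95.3 on array 4. None of these nervous tissue markers was below background throughout. Their part in the protocadherin ratios was not tested. Endothelial markers (7 of 10 below 0) and fibroblast markers (4 of 7) had medians of -0.17 and -0.03 and not this order, with -0.16, 0.09, -0.38 and -0.10 for the former and -0.38, 0.17, -0.57 and 0.73 for the latter. Skeletal muscle markers (2 of 7 below 0) were lowest on array 1 but not highest on array 4, with -0.64, -0.54, 0.85 and 0.82. Bone markers (2 of 6) gave -0.11, 0.20, 0.41 and 0.30, and epithelial markers (5 of 10) -0.15, 0.25, -0.31 and -0.54. The part of the muscle and bone markers was not tested either.

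Genes that act with the protocadherins were described from lists, by the brightest probe of each gene. Of 12 regulators of the cluster promoters, such as Ctcf and the cohesin subunits, which loop an enhancer to the chosen promoter, 10 were above 0 and 2 below, with a median of 0.15 and none past 2-fold; 2 passed the unadjusted threshold, both higher, where 9.19% of named genes did. They were Rest, a repressor of neuronal genes, at 0.35 ± 0.23, and Dnmt3b, a methyltransferase for cluster promoters, at 0.37 ± 0.12. Of 15 cytoplasmic effectors 9 were below 0 and 6 above, with a median of -0.02. Among these, Taok2, a kinase, had ratios of 0.58, 0.73, 0.32 and 0.35, the only effector past the unadjusted threshold. Wasf1, the neuronal WAVE protein, was the only one past 2-fold, with -2.06, -1.73, -0.46 and 0.23. With Cyfip2, Abi2 and Marcks it made 4 of 15 effectors that were lowest on array 1 and highest on array 4, an order that 20% of all probes measured in both channels held. Cyfip1, with 0.27, 0.12, 0.03 and -0.07, and Nckap1, with 0.37, -0.21, -0.11 and -0.31, were highest on array 1 and lowest on array 4.

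Other cadherins lay on both sides of 0. Of 19 classical and atypical cadherins tested 12 were below 0, with a median of -0.29, where 44.7% of named genes were below 0. Past 2-fold lower were 4, Cdh22 and, above background on no DEP array, Cdh7, Cdh18 and Cdh20, and past 2-fold higher was Cdh3, the P-cadherin, where 4.06% and 2.15% of named genes were. The ratios of Cdh3 were 3.56, 1.11, 0.83 and -0.94, with a mean of 1.14 ± 1.85, so its spread was larger than its mean. Of 11 large cadherins (the Fat, Dachsous, flamingo and calsyntenin genes) 8 were below 0 and 4 passed the unadjusted threshold, all lower, where 7.48% of named genes did. These were Fat1, Fat2, Celsr3 and Clstn1. The calsyntenin Clstn1 was the least variable of them, with ratios of -0.42, -0.71, -0.39 and -0.56. Past 2-fold lower were 3 of the 11 large cadherins, where 4.06% of named genes were, and past 2-fold higher 0. The 3 were Fat2, Celsr3 and Clstn2, so an excess past 2-fold lower was not particular to protocadherins. Of 8 desmosomal cadherins tested, which join keratinocytes, 7 were above 0, with a median of 0.54, none passed the unadjusted threshold and 2 were past 2-fold higher. Their medians on arrays 1 to 4 were 2.90, 0.45, 0.15 and -1.46, the order of Pcdh1.

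**Figure D4:**
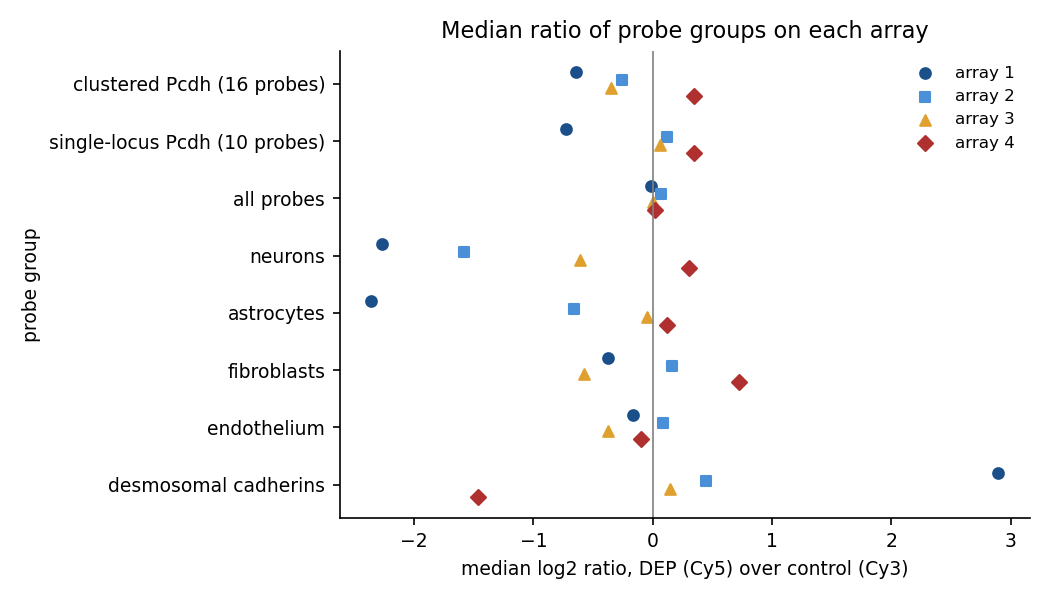
Median log2 ratio of DEP over control (horizontal axis) on each of the 4 arrays (symbols) for protocadherin probes, all probes measured in both channels, marker lists and desmosomal cadherins (vertical axis). Clustered protocadherins go from -0.64 on array 1 to 0.34 on array 4 and single-locus ones from -0.72 to 0.35, neurons and astrocytes start lower, at -2.27 and -2.36, and desmosomal cadherins run the other way, from 2.90 to -1.46.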

How the data were processed

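A DEP and a control extract of middle ear were hybridised on each of 4 2-colour arrays of 1 slide with 1 scan, so no batch could be tested. Spots were read by the authors in Feature Extraction 10.10.1.1, per the labels. The deposited signal is a background-subtracted, dye-normalized intensity per spot, and the deposited log10 ratio is Cy5 over Cy3, with 0 where no ratio was made. A deposited table of the authors' log10 ratios served as an alternative. The files name no genes and no column was without a sample (0).

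Ratios were converted from log10 to log2. Control spots, flagged spots (164 to 274 per array) and spots without a ratio (6179 to 8558 of 43020) were left out, saturated spots kept and spots of a probe averaged. Accessions were named through RefSeq of GRCm38.p6, which gave 27655 of 39429 probes a symbol; the files' own build is older, so no probe coordinates are given. A member of the Pcdh series of symbols is not reported here. An intercept was fitted with limma 3.58.1 in R 4.3.3 (lmFit, eBayes, two-sided, prior degrees of freedom 1.98) to probes with at least 3 ratios, and p-values were Benjamini-Hochberg adjusted over 31577 probes. With an array left out, probes with at least 2 ratios were fitted. The code was checked on simulated ratios. Fold means past 2 by the mean ratio. With 4 arrays precision is low, the more so for dim probes; 25772 to 27176 probes in Cy5 and 23350 to 26798 in Cy3 were well above background per array.

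Named were all single-locus genes by the brightest probe, other probes that differ in sign, C-type genes, and the 3 lowest and 3 highest means of each cluster among probes measured in both channels on all arrays; other names were chosen after their values were seen. Members and lists were chosen with earlier results of these data known. The alternatives were normexp (offset 50) with loess or median centring, the deposited ratio table, filters on background, flagged spots kept, an intensity trend, 1 probe per gene, and each array left out. Normexp used median signals, as the files hold no mean signals, which departs from the plan.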

Additional observations from a re-analysis of the deposited data

Results flagged for a closer look

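Of the values examined for a single array far from the others, 1 stood out. Pcdhb13, a Pcdhb gene with a probe above background on 3 arrays in the DEP channel and 2 in the control channel, had ratios of -0.28, -0.27, -0.21 and 2.23. The gap of array 4 to the next array was 0.97 of the whole range, above Dixon's critical value for 4 arrays. On that array the DEP signal was 29.4 and the control signal 6.24, among the signals of probes never above background there (6.09 for Pcdhb2, 6.12 for Pcdhb19), so the ratio and its gap have no exact value. Chance gives such a gap in about 1 of 20 groups, and 57 values were examined.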

How the results depend on the processing

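No paired analysis was possible because there is 1 group of arrays and no other group to pair it with; the ratio within an array already sets its DEP extract against its control extract. The deposited ratio table and flagged spots kept left all 22 named probes with a test on the same side. Both hardly changed the ratios, with a family median of -0.18 each as before, so they are weak checks of sign. The intensity trend alters the variance alone, so no sign could turn with it. The count past 2-fold lower went from 7 to 1 with normexp and loess, to 0 with normexp and median centring, and to 3 with either filter on background. The count at an unadjusted p under 0.05 went from 12 to 25 with normexp and median centring, where the share of all probes went from 18.6% to 40.1%, and to 6 with either filter. The adjusted count went from 0 to 4 with normexp and median centring (a probe each of Pcdh7, Pcdh9, Pcdhac2 and Pcdhb5, all lower), where 13.5% of all probes passed and the median of all probes measured in both channels moved from 0.02 to 0.17. The difference of clustered minus single-locus medians went from 0.07 to -0.093 with the filter on 1 channel, -0.18 with that on both and -0.16 with 1 probe per gene. With normexp and loess, Pcdh12 turned to -0.019 and Pcdhac1 to -0.012. With normexp and median centring, Pcdhac1 turned to -0.35, Pcdhgc5 to -0.24, Pcdhb12 to -0.0010 and the brighter Pcdhga9 probe to 0.28. Pcdhac1 and Pcdhgc5 were mostly not above background, so the sign of their means is uncertain in any setting. The cause was not tested.

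With arrays left out in turn, the count past 2-fold lower ranged from 3 to 10, that past 2-fold in either direction from 4 to 10 and that past 2-fold higher from 0 to 1. The unadjusted count ranged from 3, without replicate 2, to 20, without replicate 4, and the adjusted count from 0 to 0. The median ratio ranged from -0.37 to -0.03 for all members, -0.37 to -0.01 for clustered and -0.50 to -0.10 for single-locus probes, and their difference from 0.022 to 0.22. Signs turned for Pcdh20 (-0.34 to 0.22) and Pcdh1 (-0.048 to 0.89) without replicate 1, and for Pcdh12 (-0.080 to 0.23) and Pcdhgc5 (-0.15 to 0.26) without replicate 2. Probes with low signal limit what can be said of 29 of the 55 members.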
